A study of Mus musculus with 12 samples.

Results

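The 35 genes described here comprise 28 genes of glucose uptake, glycolysis, lactate and pyruvate handling and 7 other genes widely used as targets of the hypoxia-inducible factors (HIF). They were chosen by gene symbol from the platform annotation and followed across 4 groups of mouse lung defined by genotype and oxygen. The annotation named 33 of them among the 24704 genes measured. Gpi1 (glucose phosphate isomerase) and Eno1 (enolase) were not analysed here, because no probe set carried those symbols in the annotation used.

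RNA of whole, perfused lung was measured on Affymetrix arrays, with 12 arrays in 4 groups of 3. All mice carried floxed alleles of Nfat5, which encodes a transcription factor of the response to osmotic stress. Control mice (Nfat5fl/fl) received the solvent miglyol, and knockout mice (Nfat5(EC)-/-) received 1 mg of tamoxifen a day for 5 days at an age of 10 to 12 weeks, which removed the gene from endothelial cells. After 2 to 3 weeks of recovery, males and females of both genotypes spent 21 days in hypoxia or stayed in normoxia. The mean log2 level of Y-linked genes was 3.04, 6.69 and 6.18 in normoxic controls and 2.98, 6.66 and 6.12 in normoxic knockouts. In hypoxia it was 3.25, 3.08 and 5.34 in controls and 5.36, 2.99 and 3.26 in knockouts. High readings, here taken as males, were thus more frequent in normoxia, and on that reading sex is partly mixed with oxygen. The 5.34 and 5.36 of hypoxia lay below the high readings of normoxia (6.12 to 6.69). No label of sex was used for single arrays. The other lung cells of the knockouts keep Nfat5, and the labels used here do not name the promoter that drives the recombinase. Only the knockouts received tamoxifen, so drug and deletion cannot be told apart. The study planned 4 mice per group and dropped lungs with contaminating tissue or with a weak expression response to hypoxia, so the animals were selected partly on the kind of outcome described below.

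Glycolysis takes glucose into the cell, phosphorylates it, commits it to breakdown at phosphofructokinase, splits it into triose phosphates and carries these on to pyruvate. Lactate dehydrogenase turns pyruvate into lactate, and pyruvate dehydrogenase feeds it to the mitochondria unless pyruvate dehydrogenase kinases switch that enzyme off. When oxygen is scarce, HIF escapes the prolyl hydroxylases that mark it for destruction and binds short DNA elements near genes of many of these steps. In the lung, HIF is known for its part in the remodelling of vessels during chronic hypoxia.

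Promoter windows of 300 bases, reaching from 250 bases before a transcription start to 50 bases after it, were taken from RefSeq on mouse assembly GRCm38.p6. The windows of Pfkl, Aldoc and Tpi1 are printed because, of the members with a window, these rose with the smallest adjusted p-values in the comparison of hypoxia with normoxia averaged over genotypes. The first of 2 windows of Ldha was added after the values were seen, because its 7 motif counts were the highest among the 44 windows of the members. Capitals mark the core of the HIF binding element, ACGTG or GCGTG, read on either strand (CACGT or CACGC on the printed one). CACGTG reads the same on both strands and therefore counts as ACGTG on each. The Pfkl window lies at chr10:78009758-78010057 on the minus strand, that of Aldoc (first of 2) at chr11:78322823-78323122 on the plus strand, that of Tpi1 at chr6:124814109-124814408 on the minus strand and that of Ldha at chr7:46845554-46845853 on the plus strand. All 4 are written 5′ to 3′ along the strand of the gene.
Pfkl: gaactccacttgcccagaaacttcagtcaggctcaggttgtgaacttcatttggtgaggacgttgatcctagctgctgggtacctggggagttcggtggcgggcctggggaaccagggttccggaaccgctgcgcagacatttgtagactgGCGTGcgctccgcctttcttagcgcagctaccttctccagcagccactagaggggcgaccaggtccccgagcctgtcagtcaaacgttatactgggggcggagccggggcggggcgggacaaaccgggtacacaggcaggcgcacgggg
Aldoc: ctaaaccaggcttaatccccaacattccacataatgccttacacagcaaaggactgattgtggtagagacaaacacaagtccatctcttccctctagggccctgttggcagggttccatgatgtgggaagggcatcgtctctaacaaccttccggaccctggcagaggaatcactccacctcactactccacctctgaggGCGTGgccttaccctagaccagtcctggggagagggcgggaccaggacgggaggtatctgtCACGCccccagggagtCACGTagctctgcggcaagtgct
Tpi1: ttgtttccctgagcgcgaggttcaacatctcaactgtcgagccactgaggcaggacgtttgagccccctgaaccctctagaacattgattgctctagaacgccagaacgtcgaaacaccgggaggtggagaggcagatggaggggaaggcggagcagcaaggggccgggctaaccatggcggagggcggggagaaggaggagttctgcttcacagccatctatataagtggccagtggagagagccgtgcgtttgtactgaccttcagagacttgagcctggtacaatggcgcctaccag
Ldha: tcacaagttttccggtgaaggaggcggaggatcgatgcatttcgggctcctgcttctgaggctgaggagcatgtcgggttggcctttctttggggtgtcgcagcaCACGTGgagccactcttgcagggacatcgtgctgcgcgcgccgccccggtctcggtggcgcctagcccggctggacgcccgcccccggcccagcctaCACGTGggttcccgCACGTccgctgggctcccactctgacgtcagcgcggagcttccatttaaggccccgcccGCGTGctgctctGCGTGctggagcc

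The Pfkl window held 1 core motif (GCGTG, starting 99 bases before the transcription start), that of Aldoc held 3 and that of Tpi1 held 0. Ldha had 5 separate stretches, of which 2 were the palindrome CACGTG, an E-box. Windows were found for 30 of the 33 members and not for Slc2a3, Ndrg1 and Bnip3l. At least 1 ACGTG or GCGTG stood in a window of 28 of these 30 genes (93.3%), against 46.7% of the 27025 genes in the promoter table. Counted by window, the share was 35 of 44 (79.5%) against 43.8% of 32851 windows. CACGTG was found in 6 of the 30 members (20%), against 8.09% of all genes. With so few members lacking it, the core motif was present in 6 of 7 with a window that rose with hypoxia in the comparison averaged over genotypes and in 22 of 23 that did not. CACGTG was present in 3 of the 7 and in 3 of the 23. These matches describe the letters of the windows only.

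Expression values are on a log2 scale, so that a difference of 1 is a change of 2-fold. They had been brought to 1 common distribution (range 2.41 to 13.7), and within each group the arrays correlated with r from 0.989 to 0.994 across genes. The mean log2 level of 6 lung markers was 12.3 to 12.4 on every array, although 1 of them, the endothelial tight junction gene Cldn5, fell with hypoxia by 0.35 ± 0.08 (SE) in the average over genotypes (limma adjusted p = 0.018). Of 5 thymocyte markers, Rag1 and Dntt were at 3.62 or below and Cd8b1 was at 5.29 to 6.40. The array knockout normoxia 2 stood apart by Ucp1, a brown fat gene (9.31), and Nppa, an atrial peptide (11.9). Ucp1 was also high in control hypoxia 1 (7.66) and was 4.28 or below in the other arrays. The targeted gene Nfat5 averaged 9.11 ± 0.25 (SD, n = 3) in controls and 8.67 ± 0.11 in knockouts under normoxia, and 8.43 ± 0.24 and 8.34 ± 0.15 under hypoxia. With hypoxia Nfat5 was called lower in controls (-0.68 ± 0.15 SE, limma adjusted p = 0.016) and in the average (-0.50 ± 0.10, adjusted p = 0.0091). The knockout change of -0.33 ± 0.15 was not called (adjusted p = 0.38). Nfat5 was not called between genotypes in normoxia (log2 difference -0.44 ± 0.15 SE, limma adjusted p = 0.62) or in hypoxia (-0.08 ± 0.15, adjusted p = 0.97). Neither the deleted exons nor the position of the probes was used here, so this reading does not check the deletion.

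Hypoxia of 21 days was followed by higher expression of several glycolytic genes in control lungs. Of the 33 members 8 rose and 0 fell at an adjusted p under 0.05, which is 24.2% called higher, beside 5.36% of all genes called higher, 6.14% called lower and 11.5% called in either direction. The genes that rose were the phosphofructokinase subunits Pfkl and Pfkm, the aldolase Aldoc, the isomerase Tpi1, the lactate dehydrogenase subunit Ldha, the kinase Pdk2 and the HIF targets Ndrg1 and Mxi1. The median change of the members was 0.25, against 0.01 for all genes, and 29 of 33 were above 0, as were 52.3% of all genes. In 11 members all hypoxic arrays lay above all normoxic ones, a pattern found for 14% of all genes. In whole lung, a change in the share of a cell type and a change of RNA within its cells cannot be told apart.

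In knockout lungs the same comparison called 2 members higher (Pfkfb3 and Ndrg1) and 1 lower (Slc2a3), beside 1.14% of all genes called in either direction, 0.64% higher and 0.502% lower. The median change was 0.06, and 22 of 33 members were above 0, against 50.9% of all genes. Averaged over both genotypes, 8 members rose and 2 fell, beside 14.7% of all genes called in either direction, 7.27% higher and 7.4% lower. The 8 were Pfkl, Pfkfb3, Aldoc, Tpi1, Ldha, Pdk2, Ndrg1 and Mxi1, and the 2 were Slc2a3 and Ldhb. The standard errors of the changes within a genotype ran from 0.085 to 0.494 with a median of 0.13, so the precision differed widely between members.

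**Figure D1:**
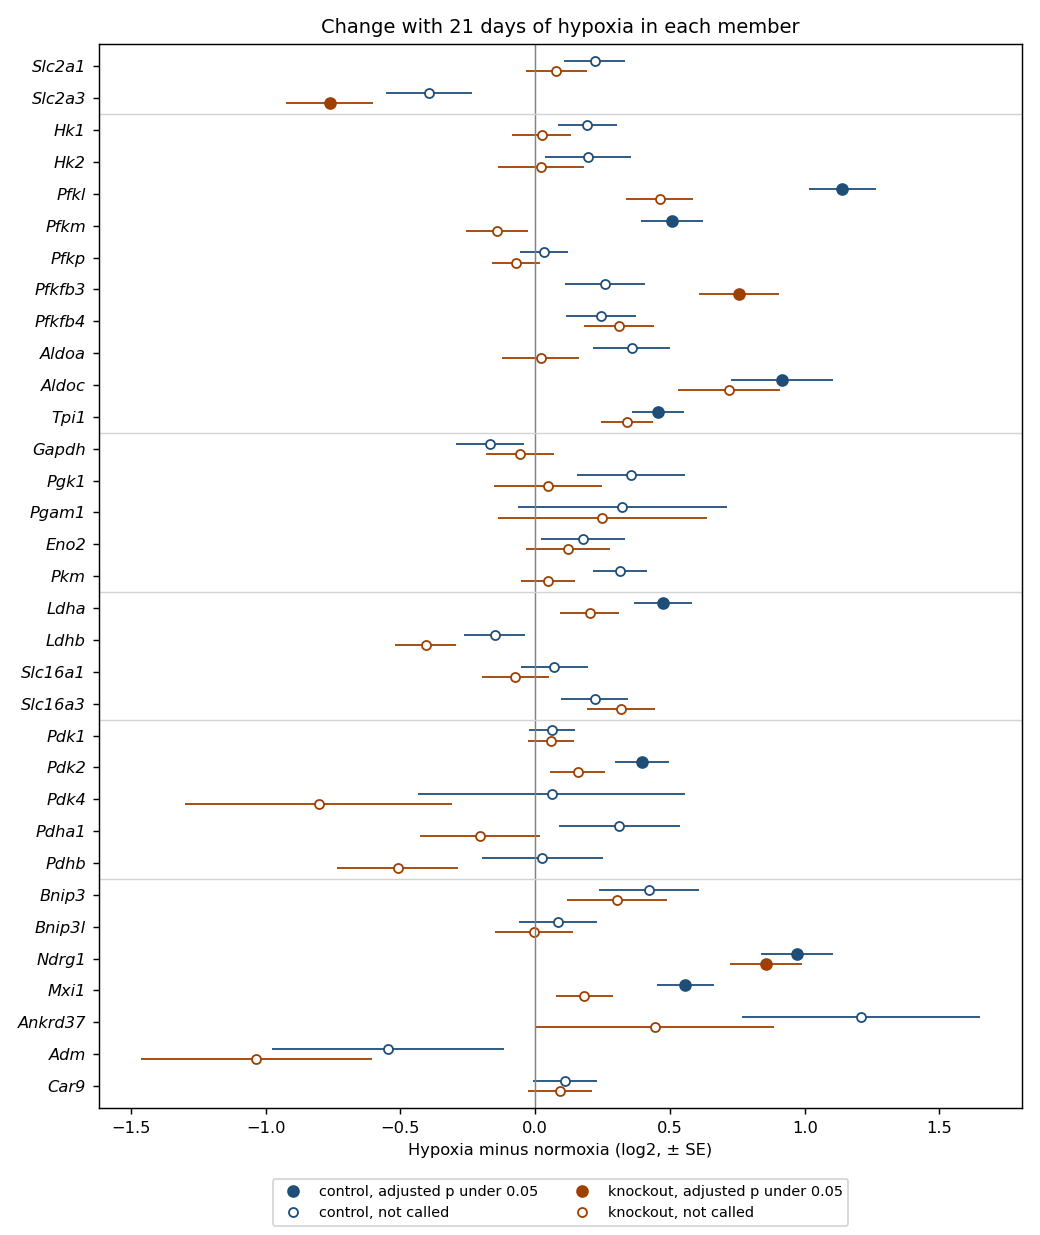
Change with hypoxia (log2, ± limma's SE) of each of the 33 members, in control lungs (blue) and in knockout lungs (brown), ordered by role with lines between roles. Filled points passed an adjusted p of 0.05, which were 8 in controls and 3 in knockouts, and most points of both genotypes lie to the right of 0.

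Neither of the 2 glucose transporters rose. Slc2a1, the transporter that supplies most cells with glucose, was at 8.08, 8.07 and 7.91 in normoxic controls and at 8.02, 8.46 and 8.24 in hypoxic controls. In knockouts it was at 8.34, 8.19 and 8.28 in normoxia and at 8.48, 8.26 and 8.30 in hypoxia. The arrays overlapped in both genotypes, and the changes were 0.22 ± 0.11 (SE, adjusted p = 0.23) and 0.08 ± 0.11 (adjusted p = 0.87). Slc2a3, a high-affinity transporter known from neurons and blood cells, was at 5.09, 5.38 and 5.11 in normoxic and at 4.91, 4.59 and 4.89 in hypoxic controls. Its knockout values were 5.09, 5.31 and 5.55 in normoxia and 4.88, 4.41 and 4.37 in hypoxia. All hypoxic arrays lay below the normoxic arrays of their genotype. Slc2a3 fell in knockouts by 0.76 ± 0.16 (adjusted p = 0.048) and in the average by 0.58 ± 0.11 (adjusted p = 0.0077), while the control change was -0.39 ± 0.16 (adjusted p = 0.14). The summed linear level of the neutrophil markers (6 of 6 measured) was 161 to 238 in normoxic and 148 to 162 in hypoxic controls, which overlapped. It was 164 to 215 in normoxic and 125 to 135 in hypoxic knockouts. Of the 6 markers, 5 changed below 0 in each genotype. Mmp8 went the other way, with means of 3.95 and 4.38 in normoxic and hypoxic controls and 4.01 and 4.34 in knockouts. The part of neutrophils in the change of Slc2a3 was not tested.

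The hexokinases, which phosphorylate glucose, were not called. Hk2, the inducible form, was at 6.35, 6.49 and 6.52 in normoxic controls, at 6.67, 6.78 and 6.50 in hypoxic controls, at 6.49, 7.19 and 6.66 in normoxic knockouts and at 6.62, 6.83 and 6.95 in hypoxic knockouts. Its highest value belonged to knockout normoxia 2, the array with high Ucp1 and Nppa. The changes of Hk2 were 0.20 ± 0.16 (adjusted p = 0.47) in controls and 0.02 ± 0.16 (adjusted p = 0.98) in knockouts. Hk1, the form found in most tissues, was at 0.19 ± 0.11 and 0.02 ± 0.11.

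Phosphofructokinase, the committing step, rose in controls in 2 of its 3 subunits. Pfkl, the liver-type subunit, was at 7.15, 6.97 and 7.36 in normoxic controls and at 8.10, 8.42 and 8.38 in hypoxic controls. Knockouts stood at 7.50, 7.81 and 7.60 in normoxia and at 8.20, 8.04 and 8.04 in hypoxia. The hypoxic arrays lay above the normoxic ones in both genotypes, and the normoxic knockouts lay above the normoxic controls. Pfkl rose 2.2-fold in controls (1.14 ± 0.12, limma adjusted p = 0.0015) and 1.74-fold in the average (0.80 ± 0.09, adjusted p = 0.00042). In knockouts its change was 0.46 ± 0.12 (adjusted p = 0.12), and the highest normoxic value there, 7.81, belonged to knockout normoxia 2.

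Pfkm, the muscle-type subunit, was at 5.40, 5.19 and 5.26 in normoxic and at 5.92, 5.71 and 5.75 in hypoxic controls, without overlap. It rose there by 0.51 ± 0.12 (adjusted p = 0.020). Its knockout values were 5.59, 5.87 and 5.502 in normoxia and 5.503, 5.66 and 5.37 in hypoxia. These arrays overlapped, and the change was -0.14 ± 0.12 (adjusted p = 0.70). Pfkp, the platelet-type subunit, stayed within 8.23 to 8.58 on all arrays, with changes of 0.03 ± 0.09 in controls and -0.07 ± 0.09 in knockouts.

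**Figure D2:**
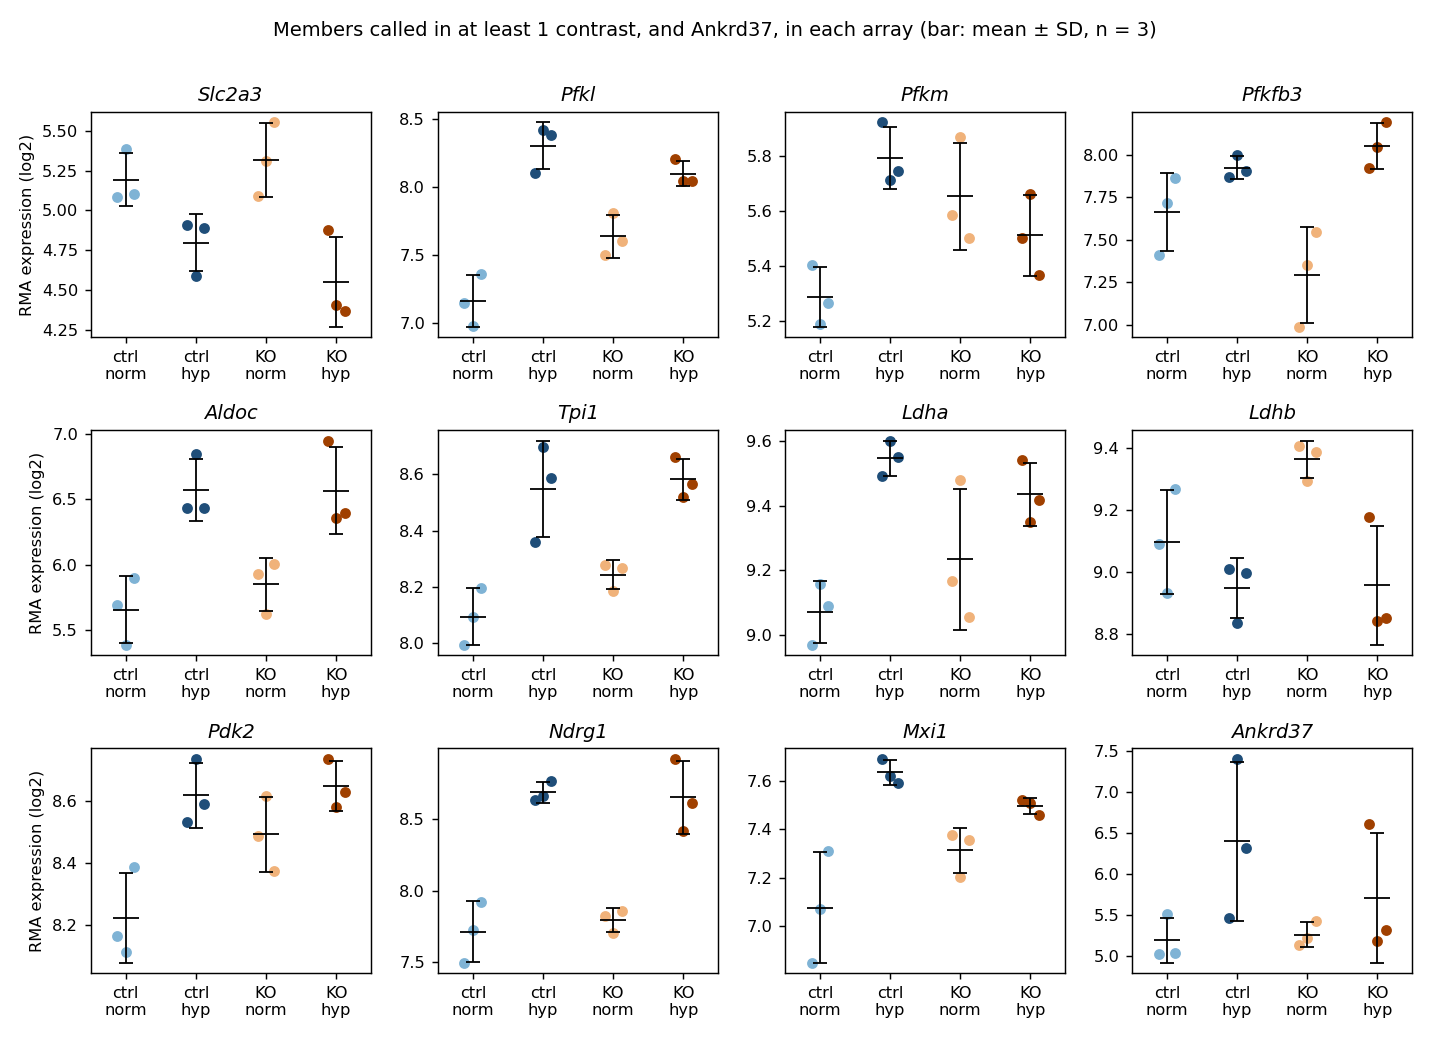
Log2 expression on each array (points), with mean and SD of 3 arrays (bars), for the 11 members called in at least 1 comparison and for Ankrd37. Each panel has its own vertical scale. Pfkl and Ndrg1 show hypoxic arrays above normoxic arrays in both genotypes, whereas for Pfkm only the control groups separate and for Ankrd37 the hypoxic arrays scatter from 5.47 to 7.41 in controls.

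Pfkfb3 makes the allosteric activator of phosphofructokinase. It was at 7.41, 7.72 and 7.86 in normoxic controls and at 7.87, 8.0 and 7.90 in hypoxic controls. The knockouts were at 6.99, 7.35 and 7.55 in normoxia and at 7.92, 8.04 and 8.19 in hypoxia. The knockout groups were well apart, while the control groups nearly touched. Pfkfb3 rose in knockouts by 0.76 ± 0.15 (adjusted p = 0.037) and in the average by 0.51 ± 0.10 (adjusted p = 0.0091), while the control change was 0.26 ± 0.15 (adjusted p = 0.29). The difference of the clock genes Dbp and Arntl moved with oxygen in the same arrays, at 5.64 to 6.21 in hypoxic and at -0.10 to 3.72 in normoxic ones. With that difference as a covariate the change of Pfkfb3 turned to -0.02 (adjusted p = 1.00) in knockouts and -0.14 (adjusted p = 0.91) in the average. No gene at all was called with this covariate in knockouts or in the average, so a lost call says nothing particular to Pfkfb3. The part of the clock genes in its change was not tested. Pfkfb4, a relative of Pfkfb3, was at 0.28 ± 0.09 in the average (adjusted p = 0.066).

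Aldoc, an aldolase best known from brain, was at 5.69, 5.38 and 5.89 in normoxic and at 6.44, 6.85 and 6.43 in hypoxic controls. In knockouts the values were 5.93, 5.62 and 6.002 in normoxia and 6.95, 6.36 and 6.39 in hypoxia. The groups were apart in both genotypes. Aldoc rose 1.89-fold in controls (0.92 ± 0.19, adjusted p = 0.013) and 1.76-fold in the average (0.82 ± 0.13, adjusted p = 0.0033), and the knockout change of 0.72 ± 0.19 was not called (adjusted p = 0.11). Aldoa, the aldolase of muscle and most other tissues, was at 4.83 to 5.42 over the 12 arrays, with changes of 0.36 ± 0.14 (adjusted p = 0.13) and 0.02 ± 0.14 (adjusted p = 0.98).

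Tpi1, which interconverts the triose phosphates, was at 7.99, 8.09 and 8.19 in normoxic and at 8.36, 8.70 and 8.59 in hypoxic controls. Knockout values were 8.28, 8.18 and 8.27 in normoxia and 8.66, 8.52 and 8.56 in hypoxia. Its hypoxic arrays lay above the normoxic ones in both genotypes. Tpi1 rose by 0.46 ± 0.10 in controls (adjusted p = 0.015) and by 0.40 ± 0.07 in the average (adjusted p = 0.0042), with 0.34 ± 0.10 in knockouts (adjusted p = 0.14).

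Of the enzymes from triose phosphate to pyruvate, 0 of the 5 measured were called in any comparison, beside 11.5% of all genes with hypoxia in controls, 1.14% in knockouts and 14.7% in the average. Pkm, the pyruvate kinase of most tissues, came nearest, with all hypoxic controls (9.14, 9.31 and 9.40) above the normoxic ones (8.88, 8.92 and 9.10) and a change of 0.31 ± 0.10 (adjusted p = 0.064). Its knockout change was 0.05 ± 0.10 (adjusted p = 0.92). Pgk1, a kinase that yields ATP, was at 0.36 ± 0.20 in controls and Pgam1, a phosphoglycerate mutase, at 0.32 ± 0.39. Pgam1 had a single low array, control normoxia 2 at 4.48, while the 11 others lay between 5.66 and 6.53. Eno2, the enolase known from neurons, was at 0.18 ± 0.16. Over the 12 arrays Pgk1 read 4.41 to 5.48 and Eno2 4.11 to 4.85, beside an array median of 4.55. Gapdh, the dehydrogenase of this stage, read only 2.82 to 3.30 on the 12 arrays, near the lowest value of the table, and no detection call came with the values, so its change of -0.17 ± 0.13 in controls says little about the transcript.

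The lactate dehydrogenase subunits went in opposite directions in the average. Ldha, the subunit associated with lactate formation, was at 8.97, 9.16 and 9.09 in normoxic and at 9.49, 9.60 and 9.55 in hypoxic controls. Among knockouts it was at 9.17, 9.48 and 9.06 in normoxia and at 9.54, 9.35 and 9.42 in hypoxia. The control groups were apart and the knockout groups overlapped through knockout normoxia 2. Ldha rose by 0.47 ± 0.11 in controls (adjusted p = 0.020) and by 0.34 ± 0.08 in the average (adjusted p = 0.014), with 0.20 ± 0.11 in knockouts (adjusted p = 0.49).

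Ldhb, the heart-type subunit, was at 9.09, 8.93 and 9.27 in normoxic and at 9.01, 8.84 and 8.998 in hypoxic controls. Its knockout values were 9.41, 9.29 and 9.39 in normoxia and 9.18, 8.84 and 8.85 in hypoxia. The control groups overlapped and the knockout groups did not. Ldhb fell in the average by 0.28 ± 0.08 (adjusted p = 0.038), with -0.15 ± 0.11 in controls (adjusted p = 0.44) and -0.41 ± 0.11 in knockouts (adjusted p = 0.13). This call was lost when any of 9 of the 12 arrays was left out, at adjusted p-values of 0.058 to 0.092. The monocarboxylate transporters were not called. Slc16a3, which exports lactate, was at 0.27 ± 0.09 in the average (adjusted p = 0.065), and Slc16a1, which carries lactate in both directions, at -0.00 ± 0.09.

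Among the pyruvate dehydrogenase genes, Pdk2, a kinase that inactivates the complex, was at 8.16, 8.11 and 8.39 in normoxic and at 8.53, 8.74 and 8.59 in hypoxic controls. Knockout arrays read 8.49, 8.62 and 8.37 in normoxia and at 8.74, 8.58 and 8.63 in hypoxia. The control groups were apart, and the knockout groups overlapped. Pdk2 rose by 0.40 ± 0.10 in controls (adjusted p = 0.028) and by 0.28 ± 0.07 in the average (adjusted p = 0.024), with 0.16 ± 0.10 in knockouts (adjusted p = 0.58). Pdk1, the kinase most often cited as a HIF target, was at 7.06, 7.07 and 7.002 in normoxic controls, at 7.01, 7.11 and 7.20 in hypoxic controls, at 7.11, 7.14 and 6.96 in normoxic knockouts and at 7.17, 7.02 and 7.20 in hypoxic knockouts. These ranges overlapped throughout, and the changes were 0.06 ± 0.08 in both genotypes (adjusted p = 0.69 and 0.87).

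Pdk4, a kinase induced by fasting and fatty acids, and Pdha1 and Pdhb, the subunits of the first enzyme of the complex, followed 2 arrays more than the groups. Their highest values all belonged to knockout normoxia 2, at 8.55 for Pdk4, 9.27 for Pdha1 and 9.45 for Pdhb. Control hypoxia 1 came second for each, at 7.62, 8.81 and 8.70. These are the arrays with high Ucp1, and the summed linear level of the 8 cardiac muscle markers ran from 1851 to 9700 in knockout normoxia, against 1186 to 3021 in the other groups. The part of other tissue in these genes was not tested. None of the 3 was called, with standard errors of 0.22 to 0.49 (0.49 for Pdk4).

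**Figure D3:**
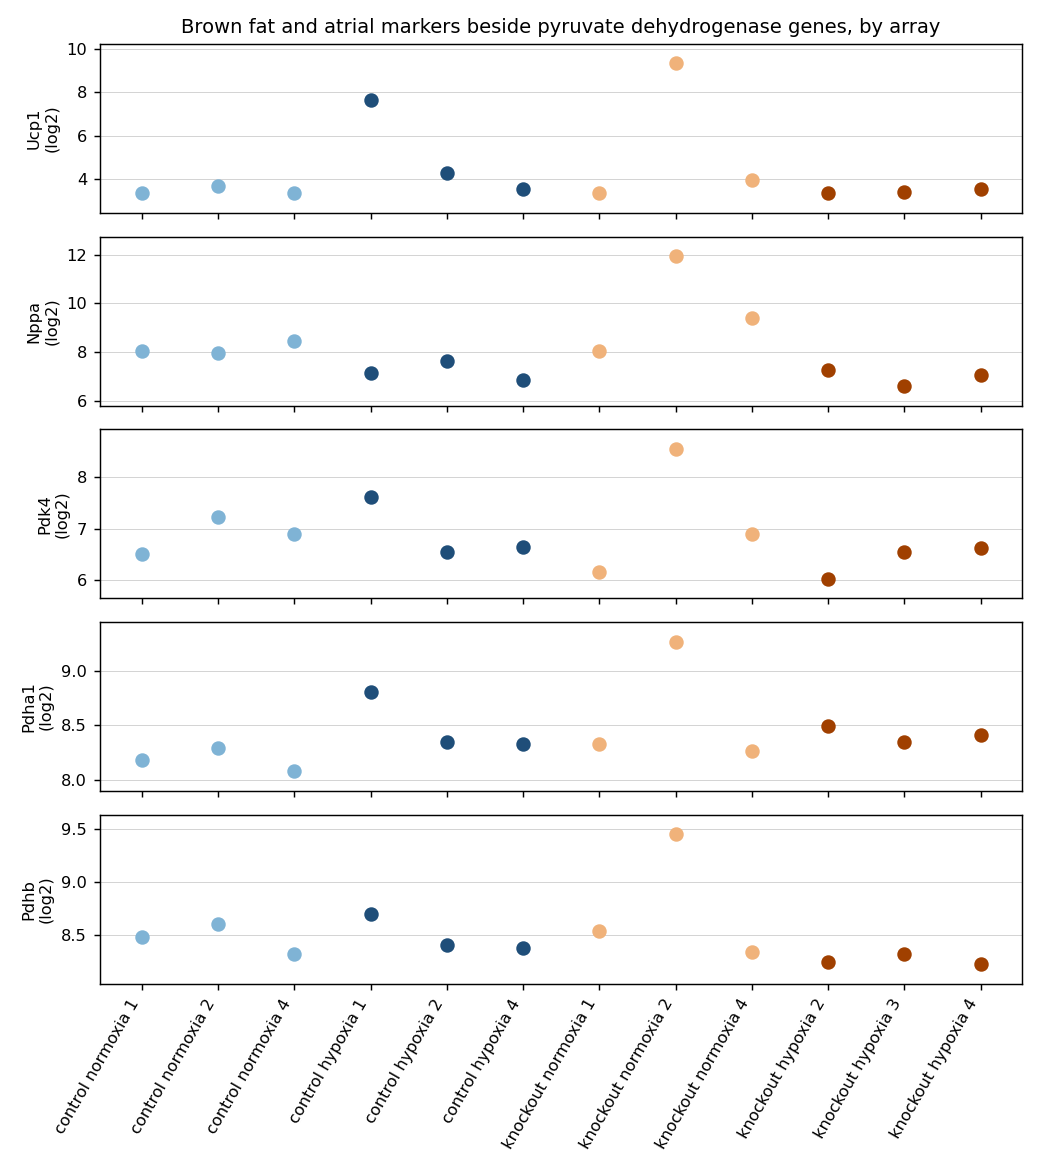
Log2 expression by array of the brown fat gene Ucp1, the atrial gene Nppa and the pyruvate dehydrogenase genes Pdk4, Pdha1 and Pdhb, coloured by group. Knockout normoxia 2 is highest in all 5 panels, and control hypoxia 1 is second for Ucp1 (7.66), Pdk4 (7.62), Pdha1 (8.81) and Pdhb (8.70) but not for Nppa.

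The HIF targets outside glucose metabolism were led by Ndrg1, a stress-response gene. It was at 7.49, 7.73 and 7.92 in normoxic and at 8.63, 8.66 and 8.77 in hypoxic controls. Knockout values were 7.83, 7.70 and 7.86 in normoxia and 8.92, 8.42 and 8.61 in hypoxia. The oxygen groups were apart in both genotypes and the genotypes lay together. Ndrg1 rose by 0.97 ± 0.13 in controls (adjusted p = 0.0044), by 0.86 ± 0.13 in knockouts (adjusted p = 0.011) and 1.88-fold in the average (0.91 ± 0.09, adjusted p = 0.00032). It was the single member called in both genotypes.

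Mxi1, an antagonist of MYC, was at 6.85, 7.07 and 7.31 in normoxic and at 7.69, 7.62 and 7.59 in hypoxic controls. In knockouts it was at 7.38, 7.20 and 7.36 in normoxia and at 7.52, 7.51 and 7.46 in hypoxia. Hypoxic arrays were above normoxic ones in both genotypes. Mxi1 rose by 0.56 ± 0.11 in controls (adjusted p = 0.010) and by 0.37 ± 0.08 in the average (adjusted p = 0.0088), with 0.18 ± 0.11 in knockouts (adjusted p = 0.54).

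Bnip3, a receptor for the removal of mitochondria, was at 7.30, 7.61 and 6.998 in normoxic and at 7.60, 7.86 and 7.72 in hypoxic controls. Knockouts were at 7.66, 7.32 and 7.33 in normoxia and at 8.01, 7.35 and 7.86 in hypoxia. The groups overlapped in both genotypes, and the average change was 0.36 ± 0.13 (adjusted p = 0.088). Its relative Bnip3l was at 0.04 ± 0.10.

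Ankrd37, an ankyrin repeat gene, had the largest change of the 33 members in controls (1.21 ± 0.44), was not called (adjusted p = 0.10) and differed widely between arrays. Hypoxic values were 5.47, 7.41 and 6.32 in controls and 6.62, 5.18 and 5.32 in knockouts, against 5.03 to 5.51 on the 6 normoxic arrays. Leaving out control hypoxia 1, the lowest of the hypoxic controls at 5.47, raised the control change to 1.67 (adjusted p = 0.027). That value rests on the higher hypoxic readings of 7.41 and 6.32.

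Adm, which encodes the vasodilator peptide adrenomedullin, was at 6.02, 4.48 and 4.75 in normoxic and at 4.65, 4.72 and 4.24 in hypoxic controls. In knockouts it was at 6.68, 5.35 and 5.08 in normoxia and at 4.41, 5.02 and 4.59 in hypoxia. The 2 highest arrays were both normoxic, and only the knockout groups were apart. The changes were -0.55 ± 0.43 (adjusted p = 0.46), -1.03 ± 0.43 (adjusted p = 0.34) and -0.79 ± 0.30 in the average (adjusted p = 0.11). With the level of Y-linked genes as a covariate, taken as a stand-in for sex, the average was -1.28 (adjusted p = 0.0012), and with the clock covariate it was 1.36 (adjusted p = 0.50). Car9, a carbonic anhydrase used as a marker of hypoxia in tumours, was at 3.69, 3.52 and 3.77 in normoxic controls, at 3.78, 3.86 and 3.67 in hypoxic controls, at 3.67, 3.43 and 3.44 in normoxic knockouts and at 3.78, 3.67 and 3.37 in hypoxic knockouts. All groups overlapped at this low level, and the average change was 0.10 ± 0.08 (adjusted p = 0.49).

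Most calls with hypoxia were lost with covariates that moved with oxygen. The mean of 9 nuclear noncoding RNAs was 5.56 to 6.05 in control normoxia and 5.02 to 5.24 in control hypoxia, and 5.40 to 5.82 and 5.12 to 5.50 in the knockouts. With that mean as a covariate 0 of 33 members were called in controls and 0 in the average (2 and 83 of all genes), and with the clock difference 0 and 0 (7 and 0 of all genes). In knockouts Ndrg1 was still called with the nuclear RNA mean (0.75, adjusted p = 0.018) and was not with the clock difference (0.51, adjusted p = 0.90), where no gene was called. The control change of Pfkl was then 0.96 and 1.14, that of Ndrg1 0.59 and 0.75, that of Aldoc 0.12 and 1.01, and that of Tpi1 0.22 and 0.38. The part of either measure in the changes was not tested, and the clock difference did not overlap between oxygen states. The number of called members also turned on single arrays. In controls it was 3 without control hypoxia 2, 4 without control normoxia 2 and 5 without control normoxia 1, beside 3.27%, 3.96% and 4.39% of all genes called in these fits, while Pfkl, Ndrg1 and Mxi1 were called without any 1 array. In knockouts it was 0 without knockout hypoxia 4 or knockout normoxia 2, beside 0.324% and 0.287% of all genes. It was 1 without control hypoxia 2, control hypoxia 4, control normoxia 2, knockout hypoxia 3 or knockout normoxia 1, beside 0.563% to 0.976% of all genes. The other control calls, of Pfkm, Aldoc, Tpi1, Ldha and Pdk2, were lost without control hypoxia 2 and, in part, without control normoxia 1 or 2, at adjusted p-values of 0.051 to 0.11, and that of Pdk2 also without control hypoxia 4. In knockouts the call of Ndrg1 was lost without knockout hypoxia 4 or knockout normoxia 2 (adjusted p = 0.053 and 0.064), that of Pfkfb3 without any of 8 arrays and that of Slc2a3 without any of 11. In the average 8 of the 10 calls held without any 1 array, the exceptions being Ldhb and Pdk2, the latter lost without any of 5 arrays. Control hypoxia 1, knockout normoxia 2 and knockout normoxia 4 carried markers of other tissues. Without them only knockout normoxia 1 stood for its group, so counts of that fit are not given on their own.

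**Figure D4:**
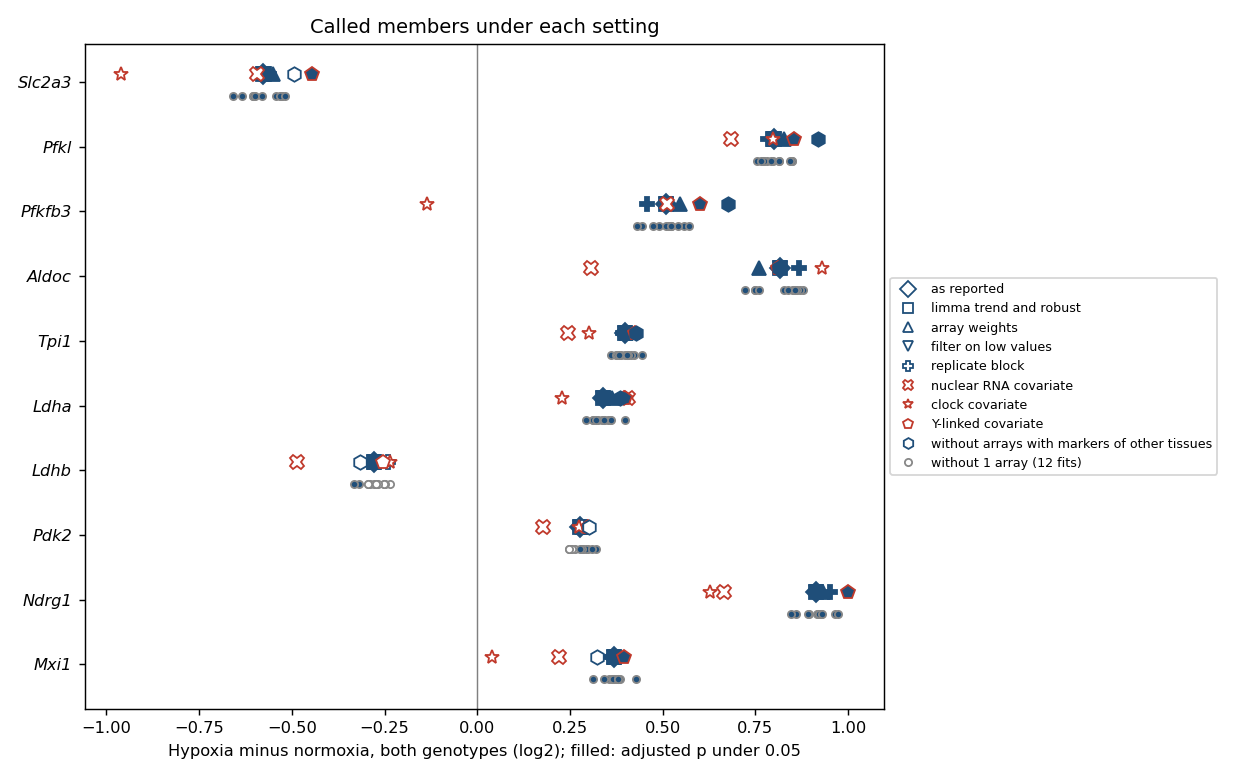
Change with hypoxia averaged over both genotypes (log2) of the 10 members called there, under each way of fitting the data, with the fits that leave out 1 array drawn as small circles below. Filled symbols passed an adjusted p of 0.05 and red edges mark covariates. Symbols of the nuclear RNA and clock covariates are open for every gene, and the clock covariate moves Pfkfb3 across 0.

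Whether the response to hypoxia differed between genotypes was tested as the knockout change minus the control change. No member passed, beside 0.00405% of all genes, and at an unadjusted p under 0.05 there were 4 of 33 members against 8.25% of all genes. These were Pfkl (-0.68 ± 0.18, unadjusted p = 0.0024, adjusted p = 0.57), Pfkm (-0.65 ± 0.16, unadjusted p = 0.0020, adjusted p = 0.57), Mxi1 (-0.37 ± 0.15, adjusted p = 0.59) and, in the other direction, Pfkfb3 (0.50 ± 0.21, adjusted p = 0.60). The difference was below 0 for 29 of 33 members, with a median of -0.17, while 49.8% of all genes lay above 0. Markers of other tissues lay the same way, with 8 of 8 cardiac (median -1.31), 5 of 5 brown fat (-0.76) and 4 of 4 adipose markers (-1.62) below 0, and their part was not tested. Without the arrays that carried such markers, which left only knockout normoxia 1 in its group, the difference was -0.64 for Pfkl and -0.52 for Pfkm. The change with hypoxia was larger in controls than in knockouts in size for 23 of 33. The calls made in controls and missed in knockouts therefore do not show a different response, since this test called no member.

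Between genotypes no member was called in normoxia, in hypoxia or in the average of both, where 0.00405%, 0% and 0% of all genes were called. In normoxia 26 of 33 members were higher in knockouts, against 48.8% of all genes, with a median difference of 0.16. All 8 cardiac (median 0.82), 5 brown fat (0.49) and 4 adipose markers (0.87) were also higher there, led by knockout normoxia 2 for Ucp1 and Nppa, and their part was not tested. At an unadjusted p under 0.05 there were 8 members, against 7.26% of all genes. Of these Slc2a1, Pfkl, Pfkm, Ldhb, Slc16a1, Pdk2 and Mxi1 were higher in knockouts and Pfkfb3 was lower. The largest was Pfkl at 0.47 ± 0.12 (unadjusted p = 0.0026, adjusted p = 0.56), followed by Pfkm at 0.37 ± 0.12 and Slc16a1 at 0.34 ± 0.12. Without the arrays that carried markers of other tissues, with only knockout normoxia 1 left in its group, these were 0.34, 0.30 and 0.19. All normoxic knockouts lay above all normoxic controls for 5 members, Slc2a1, Pfkl, Pfkm, Ldhb and Slc16a1, a pattern found for 5.46% of all genes, and for 0 members they all lay below, as for 6.22% of all genes. In hypoxia 12 of 33 members were higher in knockouts, the median was -0.05, and 1 member, Pfkm, had an unadjusted p under 0.05 (-0.28 ± 0.12), beside 5.10% of all genes. All hypoxic knockouts lay above all hypoxic controls for 1 member and below them for 3, beside 4.55% and 5.19% of all genes. In the average over oxygen 2 members had an unadjusted p under 0.05, Slc2a1 and Slc16a1, beside 4.26% of all genes. These comparisons, the response in controls and the test of the difference share the normoxic control arrays, so they are set side by side only. Pfkl, for example, had group means of 7.16 ± 0.19 (SD, n = 3) in control normoxia, 7.63 ± 0.16 in knockout normoxia, 8.10 ± 0.09 in knockout hypoxia and 8.30 ± 0.17 in control hypoxia.

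**Figure D5:**
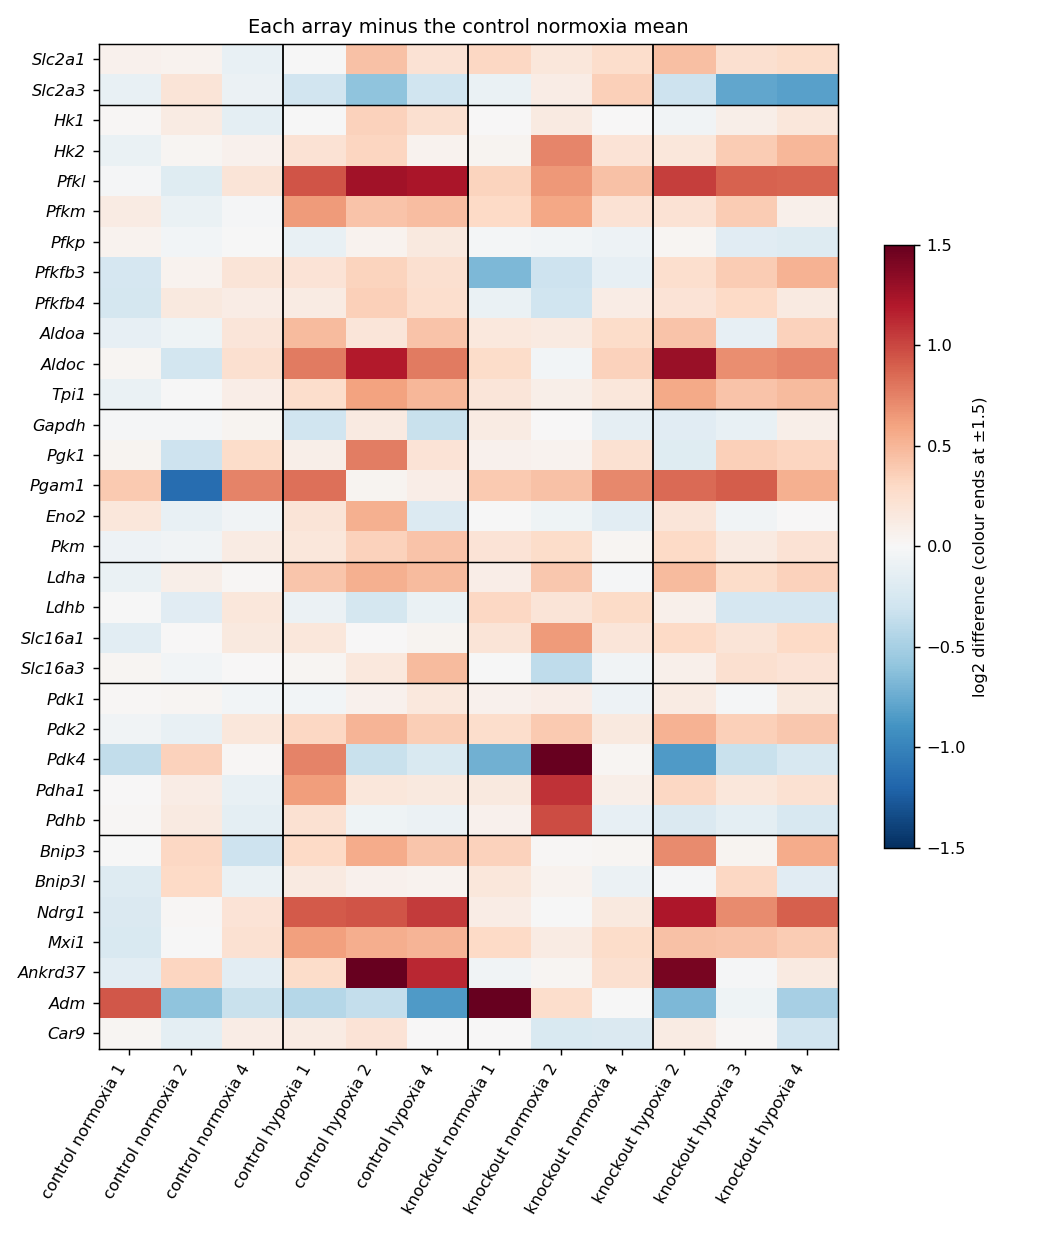
Each array minus the mean of the 3 normoxic controls (log2) for the 33 members in order of role, with colours ending at 1.5 in either direction. Pfkl, Aldoc and Ndrg1 are red across all 6 hypoxic arrays, the dark cells of Pdk4, Pdha1 and Pdhb belong to knockout normoxia 2, and normoxic knockouts are faintly red for 26 of 33 genes on average.

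Other genes of the same pathways were taken from lists that did not include the members. Of 21 further glucose genes, 4 rose and 0 fell in controls, 0 were called in knockouts, and 5 rose in the average, beside 5.36% of all genes called higher in controls, 1.14% called in knockouts and 7.27% called higher in the average. They included Hkdc1, a hexokinase-domain protein (0.57 ± 0.11 in the average, adjusted p = 0.0065), Bsg, the chaperone of lactate transporters (0.33 ± 0.07, adjusted p = 0.0092), the glucose phosphatase gene G6pc3 (0.54 ± 0.11, adjusted p = 0.011) and Pgm1, a phosphoglucomutase (0.34 ± 0.07, adjusted p = 0.012). Of 9 further pyruvate genes, 0 were called in either genotype or in the average, beside 11.5%, 1.14% and 14.7% of all genes. Of 7 genes of the pentose phosphate pathway, Taldo1, a transaldolase, rose (0.41 ± 0.11, adjusted p = 0.034) and Rpe, an epimerase, fell by 0.60 ± 0.15 (adjusted p = 0.026) in controls. H6pd, the pathway's first enzyme in the endoplasmic reticulum, rose in the average (0.42 ± 0.12, adjusted p = 0.031), where 1 of the 7 fell. The shares of all genes called higher and lower were 5.36% and 6.14% in controls and 7.27% and 7.4% in the average. None of the 7 was called in knockouts, beside 1.14% of all genes.

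Of 27 further HIF targets, 8 rose and 3 fell in controls, 2 rose and 1 fell in knockouts, and 7 rose and 3 fell in the average. The shares of all genes called higher and lower were 5.36% and 6.14% in controls, 0.64% and 0.502% in knockouts and 7.27% and 7.4% in the average. Bhlhe40, a repressor that also acts on the circadian clock, rose by 0.87 ± 0.10 in the average (adjusted p = 0.00074), Lox, which cross-links collagen, by 0.69 ± 0.09 (adjusted p = 0.0011) and Pgf, a growth factor of vessels, by 0.91 ± 0.15 (adjusted p = 0.0035). Hilpda, a protein of lipid droplets, fell by 0.77 ± 0.10 (adjusted p = 0.0013) and in both genotypes. Vegfa, the vascular growth factor often used as a readout of HIF, was at 11.57 to 11.81 in normoxic and at 11.25 to 11.42 in hypoxic controls, without overlap, and fell in the average by 0.33 ± 0.06 (adjusted p = 0.0077).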

How the data were processed

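RNA of whole mouse lung was measured on 12 Affymetrix arrays, grouped by the sample titles into 4 groups of 3, which were taken as separate mice. The authors deposited log2 expression values of each probe set on each array, made with RMA (background correction, normalization to a common distribution and summary of probes) per the submitters' processing notes. Version, annotation and filters of that step were not given in the sources used here. Ranked from low to high, all arrays held the same values (largest difference 0), so a change in total RNA cannot be seen. The platform annotation gave 24705 of 25428 probe sets 1 symbol and 723 none, and the brighter of 2 probe sets was kept for 1 symbol.

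Group means of all 24704 genes were modelled in R 4.3.3 by limma 3.58.1 (8 residual and 3.61 prior degrees of freedom), with no filter and no covariate. There were 7 contrasts: hypoxia in each genotype and averaged, knockout in each oxygen state and averaged, and the difference of the hypoxia changes. Tests were two-sided, p-values were adjusted by Benjamini-Hochberg over all genes within a contrast, and calls needed an adjusted p below 0.05. Errors of changes are limma's standard errors. The number of arrays, 3 per group, limits the precision. Tables and plots were made with Python 3.11.15, pandas 2.3.3 and matplotlib 3.10.9, and the fitting was tested on simulated data.

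The members, the further gene lists and the rule for naming genes were chosen with earlier results of these data known. Full values are given for members called in at least 1 contrast and for Slc2a1, Hk2, Pfkfb3, Ldha, Pdk1, Bnip3, Adm and Car9, and at most 4 called genes of each further list, plus Vegfa, are named. Marker lists of other tissues, nuclear RNAs, clock genes and Y-linked genes were part of the fit of all genes. They are described by levels and median changes without their p-values, and the last 3 served as covariates. The alternative settings were a fit of the contrast's own groups, limma's trend with robust moderation, array weights, a filter on low values, the replicate number as a block, the 3 covariates, leaving out the arrays with markers of other tissues, and leaving out each array in turn. The arrays left out for such markers were control hypoxia 1, knockout normoxia 2 and knockout normoxia 4, so only knockout normoxia 1 stood for its group. Control normoxia 2 was kept, with a summed cardiac level of 3021 beside 3564 in knockout normoxia 4.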

Additional observations from a re-analysis of the deposited data

How the results depend on the processing

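The settings were applied to the counts of called members in the 7 comparisons, except that a fit of the contrast's own groups was made only for the 4 comparisons of 2 groups. The 3 comparisons between genotypes and the difference of the responses had 0 called members under every setting run, of 33 members, or of 30 with the filter on low values. In controls 8 members were called, 5 when only the 2 control groups were fitted and 0 with either the nuclear RNA or the clock covariate, with 3 to 10 when 1 array was left out. In knockouts 3 were called, 1 with only the knockout groups, 5 with array weights, 1 with the nuclear RNA covariate and 0 with the clock covariate, with 0 to 2 when 1 array was left out. In the average 10 were called, 0 with the nuclear RNA and 0 with the clock covariate, 6 without the arrays with markers of other tissues, and 8 to 12 when 1 array was left out. The replicate numbers are not given as litters or days. Deviations of same-numbered arrays correlated from -0.25 to 0.28, which cannot show whether they share more than a number. Y-linked means of same-numbered control and knockout arrays were alike in normoxia (3.04 and 2.98, 6.69 and 6.66, 6.18 and 6.12). In hypoxia they were 3.08 and 5.36 for number 2, and 5.34 and 3.26 for number 4. With the replicate block 7 members were called in controls, 0 in knockouts and 9 in the average. The clock covariate turned Pfkfb3 to -0.021 in knockouts and -0.14 in the average. The cause of these shifts was not tested. Of 431 repeats of the 21 called changes, 320 stayed past the threshold in the same direction, 109 kept their direction and lost it, and 2 reversed. Over all genes the number called in controls was 2839, and 1100 with only the control groups, 1794 with the Y-linked, 2 with the nuclear RNA and 7 with the clock covariate, and 808 to 3920 when 1 array was left out. In knockouts it was 282, and 508 with array weights, 166 with the Y-linked covariate, 157 and 0 with the nuclear RNA and clock covariates, and 40 with the replicate block. In the average it was 3622, and 83, 0 and 2180 with the nuclear RNA, clock and Y-linked covariates. Values near the bottom of the scale, as for Gapdh and Car9, limit what can be seen for these genes.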
